A study of Mus musculus with 6 samples.

Results

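The genes described here encode the mouse Fc gamma receptors Fcgr1, Fcgr2b, Fcgr3 and Fcgr4, the signalling chain Fcer1g and the kinase Syk. They were taken by gene symbol from a table of counts per gene in retina, and make up 6 of its 23420 genes. Retinal RNA was sequenced in 6 libraries, 2 of each group: untreated control retinas, retinas taken 4 days after 1 h of light at 10000 lux, and retinas exposed in the same way from animals that also received the tetracycline analog minocycline. The labels give CD1 mice for all 6 libraries and intraperitoneal minocycline at 45 mg/kg, given daily for 4 days. The study's methods instead describe adult albino BALB/cJ mice of both sexes, a brighter light, additional injections in the first days and another RNA kit, so strain, intensity and schedule carry this uncertainty. No group received minocycline without light, and how many animals stand behind a library, and whether animals without minocycline received the solvent, was not given in the sources used here. The study calls the libraries biological replicates. Both minocycline columns carried the same header, and these libraries are called minocycline A and B. The question addressed was how the antibody receptors and their kinase differed in the retina after light damage and when minocycline was given with it.

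Fc gamma receptors bind the constant part of immunoglobulin G on immune complexes and antibody-coated particles. In the mouse, Fcgr1, Fcgr3 and Fcgr4 are activating receptors that assemble with the chain encoded by Fcer1g, whose tyrosine motif (ITAM) is phosphorylated by Src family kinases and then binds Syk. Syk passes the signal to adaptors, phospholipases and exchange factors that drive engulfment, the oxidative burst and cytokine release, whereas Fcgr2b carries an inhibitory motif (ITIM) that recruits phosphatases such as SHIP1. In the retina these genes are known mainly from microglia, the resident macrophages, and from blood-derived myeloid cells that enter damaged tissue.

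Total counts ranged from 15205930 to 22856922 per library, and 3 counts, taken as the detection limit, equalled between 0.131 and 0.213 CPM, the counts of a gene scaled by library size. The tissue label fitted the photoreceptor and Müller cell markers, whose summed level was between 37000 and 87200 CPM over 7 genes. Control 1 stood apart in Xist, a transcript of female cells, with 77778 counts against 25 to 188 counts in the other libraries. Light 2 held more of all 6 genes than light 1, by 2.87 to 5.65 times in CPM. Markers of corneal epithelium summed to 188 and 265 CPM in minocycline A and B and to between 2.11 and 14.8 CPM in the other libraries. As the RNA came from whole retina, more cells of a type and more RNA per cell cannot be told apart in any of the values.

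Of the members, 4 lie within 275.7 kb of chromosome 1 in the GRCm38 build (the mm10 genome used by the authors), counting all of each gene. These are Fcgr2b (chr1:170958617-170976547, minus strand), Fcgr4 (chr1:171018920-171029761, plus strand), Fcgr3 (chr1:171051174-171064935, minus strand) and Fcer1g (chr1:171229572-171234365, minus strand). Fcgr1 lies on chromosome 3 (chr3:96282909-96293969, minus strand) and Syk on chromosome 13 (chr13:52583173-52648792, plus strand). Fcgr2b and Fcgr3 are closely related, and 166 words of 50 bases, the length of a read, occurred in transcripts of both genes. These were 10.2% of the words of Fcgr3, while 395 words or 10.7% of Fcgr2b were shared with Fcgr3 or with other genes. How the counting treated such reads was not given in the sources used here, so small differences between these genes are uncertain. Fcgr2b also overlaps the predicted gene Gm38204 on the opposite strand over 155 exonic bases. The other 4 members shared no 50-base word with another gene.

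The receptor genes are known to be driven in myeloid cells by PU.1 and, for Fcgr1, by interferon gamma. The 250 bases before the RefSeq start sites were therefore searched on both strands for the PU.1 core GAGGAA and for TTCNNNGAA, a motif of the STAT family. The windows of the 3 activating receptors are shown because each held the PU.1 core, which reads TTCCTC on the printed strand. Capitals mark the matches, each sequence runs 5′ to 3′ on the strand of the gene and ends at the base before the start, and the Fcgr1 window is chr3:96293970-96294219 (minus strand), the Fcgr3 window chr1:171059404-171059653 (minus strand) and the Fcgr4 window chr1:171018676-171018925 (plus strand), all in GRCm38.p6.
Fcgr1: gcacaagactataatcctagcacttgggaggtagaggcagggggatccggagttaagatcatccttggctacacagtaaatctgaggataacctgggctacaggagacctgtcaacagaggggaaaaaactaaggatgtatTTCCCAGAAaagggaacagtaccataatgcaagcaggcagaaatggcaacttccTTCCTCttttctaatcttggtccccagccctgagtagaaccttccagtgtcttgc
Fcgr3: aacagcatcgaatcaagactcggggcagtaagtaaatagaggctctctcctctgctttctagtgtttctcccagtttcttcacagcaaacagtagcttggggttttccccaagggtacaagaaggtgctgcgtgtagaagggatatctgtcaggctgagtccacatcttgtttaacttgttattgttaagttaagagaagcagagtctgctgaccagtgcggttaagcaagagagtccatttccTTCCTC
Fcgr4: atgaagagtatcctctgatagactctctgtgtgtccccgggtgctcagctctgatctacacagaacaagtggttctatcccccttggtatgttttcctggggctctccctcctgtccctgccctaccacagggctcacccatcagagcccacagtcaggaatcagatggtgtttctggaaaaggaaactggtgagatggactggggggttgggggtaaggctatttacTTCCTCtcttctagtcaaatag
The PU.1 core began 55 bases before the start in Fcgr1, 6 bases before it in Fcgr3 and 22 bases before it in Fcgr4. Fcgr1 alone among the members also held the STAT motif, 109 bases before the start. The window of a second Syk start held GAGGAA on the plus strand 9 bases before the start, while the windows of Fcgr2b, Fcer1g and the first Syk start held neither motif. Of 32851 mouse windows of the same length, 23.3% held the PU.1 core and 7.0% the STAT motif, so that the letters alone are frequent.

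Light-exposed retinas held more RNA of every receptor, of the chain and of the kinase than control retinas, and both light-exposed libraries lay above both control libraries for 6 of 6 members. With edgeR's quasi-likelihood test, 5 of the 6 rose past the call used here, which asks for a log2 fold change of 2 or more besides an adjusted p below 0.05. Over all 14349 genes tested, 2.89% passed this call in the higher direction. With the adjusted p alone the members called were again 5, against 7.52% of all genes higher and 3.8% lower, and the median log2 fold change of the members was 4.65 against 0.003 over all genes tested. Both light-exposed libraries lay above both controls in 30.6% of all tested genes. Fcgr1, Fcgr4 and Syk, at 7 counts or fewer in each control library, passed the count filter only through the light-exposed libraries. Their calls and the median of 4.65 thus include genes admitted to the test by the group where they were high. A filter on every library left fewer members to test, as given in the last section.

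Fcgr1, the high-affinity receptor for immunoglobulin G, had 0.355 and 0.493 CPM in the control libraries, 3.68 and 13 CPM after light, and 0.653 and 0.212 CPM with minocycline. It rose 19.5-fold in light-exposed against control retinas, a log2 fold change of 4.29 ± 0.73 (SE, adjusted p = 0.0190). The control and minocycline libraries overlapped, and both light-exposed libraries stood clear of them.

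Fcgr3, the low-affinity activating receptor, had 0.711 and 0.704 CPM in control, 9.75 and 38 CPM in light-exposed and 2.13 and 0.689 CPM in minocycline libraries. Its log2 difference between light-exposed and control retinas was 5.07 ± 0.97 (SE), a fold of 33.6, and did not pass the test (adjusted p = 0.0576). It was the member with the second highest fold and the only one not called. Light 2 alone held 800 of the 967 counts of the light-exposed group. It also held most of these counts in every called member, such as 132 of 151 for Fcgr4. Why Fcgr3 was not called was not tested.

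Fcgr4, the activating receptor of intermediate affinity, was the scarcest member in counts and CPM. It had 1 count in each control library, 19 and 132 counts in light 1 and light 2, and 3 and 0 counts in minocycline A and B, which corresponded to 0.0711 and 0.0704, 1.11 and 6.27, and 0.131 and 0 CPM. Since the controls lay under the limit of 3 counts, the change is given as the ratio of the summed counts (151 against 2) after scaling by the effective library sizes, 55.9-fold with a 95% interval of 15.2 to 466, which covers counting error only. It rose (adjusted p = 0.0372), with a fitted log2 fold change of 5.58 ± 1.21 (SE) that depends on the prior count.

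Fcgr2b, the inhibitory receptor, had 0.924 and 0.634 CPM in control retinas, 5.49 and 18.2 CPM after light and 1.22 and 0.689 CPM with minocycline. It rose 15.2-fold, by 3.92 ± 0.68 (SE) on the log2 scale (adjusted p = 0.0220), the lowest fold among the members. The range of 1 SE around it overlapped those of all 5 other members.

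Fcer1g, the chain that carries the ITAM for the activating receptors, was the most abundant member in every library. It had 1.14 and 1.06 CPM in control, 13.9 and 39.9 CPM in light-exposed and 2.18 and 1.22 CPM in minocycline libraries. It rose 24.5-fold (log2 fold change 4.61 ± 0.65 (SE), adjusted p = 0.0210).

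Syk, the kinase recruited to the phosphorylated ITAM, had 3 and 7 counts in the control libraries, 77 and 292 after light, and 19 and 6 with minocycline. In CPM these were 0.213 and 0.493, 4.50 and 13.9, and 0.827 and 0.318. It rose 25.6-fold (log2 fold change 4.68 ± 0.72 (SE), adjusted p = 0.0141), with the lowest adjusted p of the members.

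The plot of levels by library shows the 2 features that recur in every gene, the gap between light-exposed and other libraries and the gap between light 1 and light 2.

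**Figure D1:**
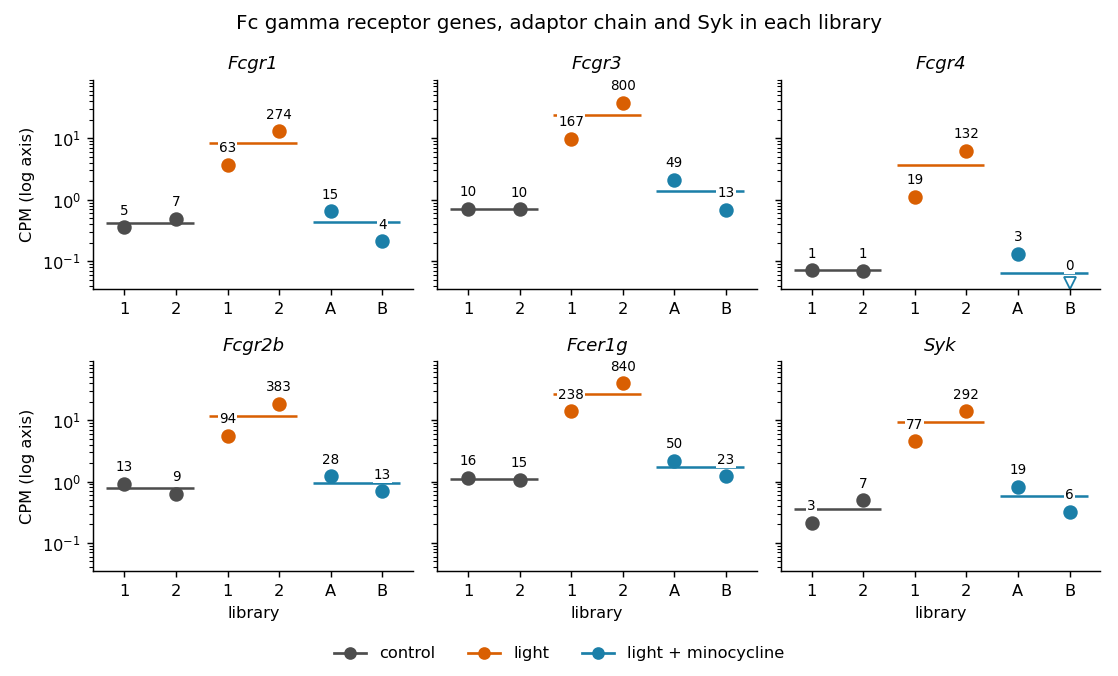
Level of each member in each library in CPM on a log axis, with the raw count printed above each point and a line at the mean of the 2 libraries of a group; the open triangle marks 0 counts. Light-exposed libraries lie between 1.11 and 39.9 CPM and control libraries between 0.0704 and 1.14 CPM.

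The calls depended on which library was left out. A fit with 1 library left in a group takes its spread from the 2 libraries of the other group. Without either control these were light 1 and light 2, which differed 2.87 to 5.65 times in the members. Without control 1, the library with the high Xist count, 0 of 6 members passed the test (adjusted p between 0.114 and 0.289), and without control 2 again 0 of 6 (between 0.136 and 0.375). Those fits called few genes at all, 3 of 14862 higher without control 1 and 13 of 14853 without control 2, while the log2 fold changes stayed between 3.67 and 5.58. Without either light-exposed library 6 of 6 passed in the fit of these groups, and in a fit of all libraries without light 2, which was added after seeing the data, Fcgr3 and Fcer1g passed, with log2 fold changes of 2.81 to 3.84 over the members. DESeq2 called 6 of 6 members, with adjusted p between 4.14e-19 and 0.000307. Over all genes DESeq2 called 463 of 15115 higher, the fit without light 1 called 738 of 14753, that without light 2 called 247 of 14528, and that of all libraries without light 2 called 82 of 14841.

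In retinas of light-exposed animals given minocycline, all 6 members lay below the light-exposed libraries, without overlap of the groups, but 0 of 6 passed the test. Their log2 differences from light-exposed retinas ranged from -5.58 to -3.60 with a median of -3.99, against 0.006 over the 14750 genes tested. The unadjusted p of the members lay between 0.00110 and 0.00531, under 0.05 in 6 of 6, and the adjusted p between 0.0698 and 0.0949. In this comparison few genes passed at all: 0.0339% of genes were called lower, and with the adjusted p alone 0.0407% were lower and 0.0136% higher, while 21.1% had an unadjusted p under 0.05. Both minocycline libraries lay below both light-exposed libraries in 28.7% of all tested genes.

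Fcer1g had the lowest adjusted p (0.0698), with a log2 difference of -3.95 ± 0.62 (SE), a 15.5-fold lower level. Syk differed by -3.95 ± 0.71 (SE, adjusted p = 0.0709), a 15.4-fold lower level, and Fcgr2b by -3.60 ± 0.67 (adjusted p = 0.0723), a 12.1-fold lower level. The chain, the kinase and the inhibitory receptor thus had differences of similar size.

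Fcgr1 differed by -4.20 ± 0.81 (SE, adjusted p = 0.0772) and Fcgr3 by -4.04 ± 0.85 (adjusted p = 0.0939). Fcgr4, at 3 and 0 counts with minocycline, was 55.2 times lower than after light alone in summed counts scaled by library size, with a 95% counting interval of 18.5 to 271 (adjusted p = 0.0949). DESeq2 called all 6 members lower, with adjusted p between 6.66e-13 and 0.00826, a fit of all 6 libraries called 5, with Fcgr3 at an adjusted p of 0.0505, and the fit without light 1 called 6. Over all genes DESeq2 called 297 of 15631 lower and the fit of all 6 libraries 218 of 14713. Without light 2, minocycline A or minocycline B the fits called 0 members, and over all genes 24, 16 and 4 lower, against 406 without light 1.

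**Figure D2:**
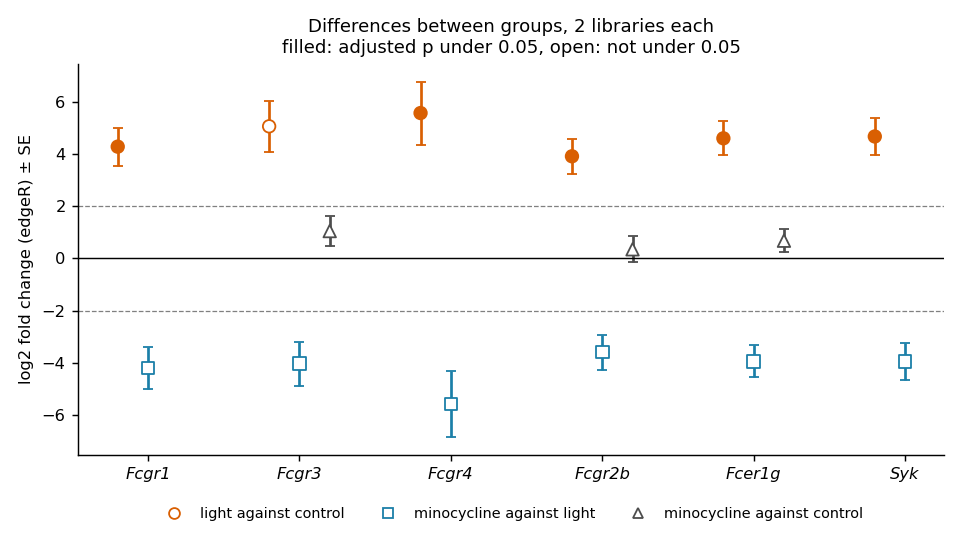
Log2 fold change of each member from edgeR with its standard error, for the 3 comparisons of 2 libraries each, filled where the adjusted p was under 0.05 and open where it was not; dashed lines mark a log2 fold change of 2 in either direction. The light-exposed against control values lie between 3.92 and 5.58, and the values for minocycline against light between -5.58 and -3.60.

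Minocycline-treated light-exposed retinas and untreated control retinas held these genes at similar low levels, and 5 of the 6 members overlapped between the groups. Fcer1g was the exception, with 2.18 and 1.22 CPM above 1.14 and 1.06 CPM, as were 15.9% of all tested genes. Fcgr2b, Fcgr3 and Fcer1g had enough counts to be tested, and 0 of these 3 passed (0 at an unadjusted p under 0.05, 0 with DESeq2), against 0.134% of the 14181 genes called higher. Their log2 differences were 0.35 ± 0.50, 1.05 ± 0.59 and 0.68 ± 0.45 (SE), with adjusted p of 0.829, 0.742 and 0.742. Scaled by library size in the same way, the Fcgr3 counts, 62 against 20, gave a ratio of 2.09 with a 95% counting interval of 1.25 to 3.66, and those of Fcer1g, 73 against 31, a ratio of 1.59 (1.03 to 2.51). For Fcgr1 the ratio was 1.07 (0.493 to 2.42) and for Syk 1.69 (0.783 to 3.94). Both groups of Fcgr4 were at or under 3 counts per library, and no fold is given. The intervals of Fcgr3 and Fcer1g, which cover counting error only, lay above 1, and those of Fcgr1, Syk and Fcgr2b (1.26, from 0.733 to 2.22) included 1. The Fcgr3 value rested on minocycline A: without it the log2 difference was -0.0, and without minocycline B it was 1.59 (neither passed).

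Levels of different genes were compared per kilobase of exon. In light-exposed retinas the order was Fcer1g, with 36.0 ± 24.6 CPM per kilobase (SD, n = 2), Fcgr3 with 14.7 ± 12.3, Fcgr1 with 3.22 ± 2.55, Fcgr2b with 3.11 ± 2.36, Fcgr4 with 2.94 ± 2.90 and Syk with 1.52 ± 1.10. The spread came from the gap between the libraries, so the order was read within each of them. In light 1 Fcer1g had 18.6, Fcgr3 5.99 and Syk 0.746 CPM per kilobase, and in light 2 they had 53.3, 23.3 and 2.30, so that Fcer1g came first, Fcgr3 second and Syk last in both. Fcgr1, Fcgr2b and Fcgr4 lay between 0.884 and 1.44 in light 1 and between 4.77 and 5.02 in light 2 and changed places. With the median length of the coding transcripts in place of all exons, Fcgr2b came to 7.79 CPM per kilobase and stood next after Fcgr3. In control retinas Fcer1g was again first, with 1.47 ± 0.0766 CPM per kilobase (SD, n = 2), and Fcgr3 second with 0.434 ± 0.00288.

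The share of the inhibitory receptor in the receptor RNA was lower in both light-exposed libraries than in both control libraries. Per kilobase, Fcgr2b was 27.8% and 19.7% of the 4 receptor genes in control 1 and 2, 14.8% and 12.5% in light 1 and 2, and, with minocycline, 16.1% in library A and 26.4% in library B. Fcgr3 was 50% and 51.2% in control, 61.5% and 61.2% after light and 65.9% and 61.7% with minocycline. Fcgr4 was 6.48% and 6.63% in control, 9.08% and 13.1% after light, and 5.24% and 0% with minocycline. As the 4 shares make up a whole and each group has 2 libraries, these values are a description only. Light-exposed and control libraries overlapped for Fcgr1 in raw counts and with the median transcript length (10.3% and 15.9% in control, 10.7% and 9.92% after light). The shares of Fcgr2b and of the activating Fcgr1 (15.7% and 22.5% in control, 14.6% and 13.2% after light) were lower after light, and those of Fcgr3 and Fcgr4 higher. The shares depend on the length used: with the median transcript length, tried after seeing the data, Fcgr2b was 45.4% and 34.9% in control, 27.2% and 23.6% after light, and 29.0% and 42.9% with minocycline.

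The control shares rest on few counts. Of the raw receptor counts, Fcgr2b took 44.8% of 29 in control 1 (95% Wilson interval 28.4 to 62.5) and 33.3% of 27 in control 2 (18.6 to 52.2), against 27.4% of 343 in light 1 (23.0 to 32.4) and 24.1% of 1589 in light 2 (22.1 to 26.3). The interval of control 2 contains both light-exposed values of Fcgr2b, and that of control 1 contains neither. Fcgr4, with 1 count in each control library, took 3.45% (0.611 to 17.2) and 3.70% (0.657 to 18.3) in control 1 and 2. These intervals contain its 5.54% and 8.31% in light 1 and 2. The log2 ratio of activating to inhibitory receptors per kilobase was 1.38 and 2.03 in control, 2.52 and 2.80 after light and 2.38 and 1.48 with minocycline. The difference was 0.96 for light-exposed against control (exact two-sided permutation p = 0.333), -0.73 for minocycline against light (p = 0.333 by the same exact test) and 0.23 for minocycline against control (exact p = 0.667). With 2 against 2 libraries the smallest p this test can give is 0.333 for a shift of any size, so it says nothing of these differences, and the values are given as a description. The means ± SD (n = 2) of the log2 ratio were 1.70 ± 0.46 in control, 2.66 ± 0.20 after light and 1.93 ± 0.64 with minocycline.

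**Figure D3:**
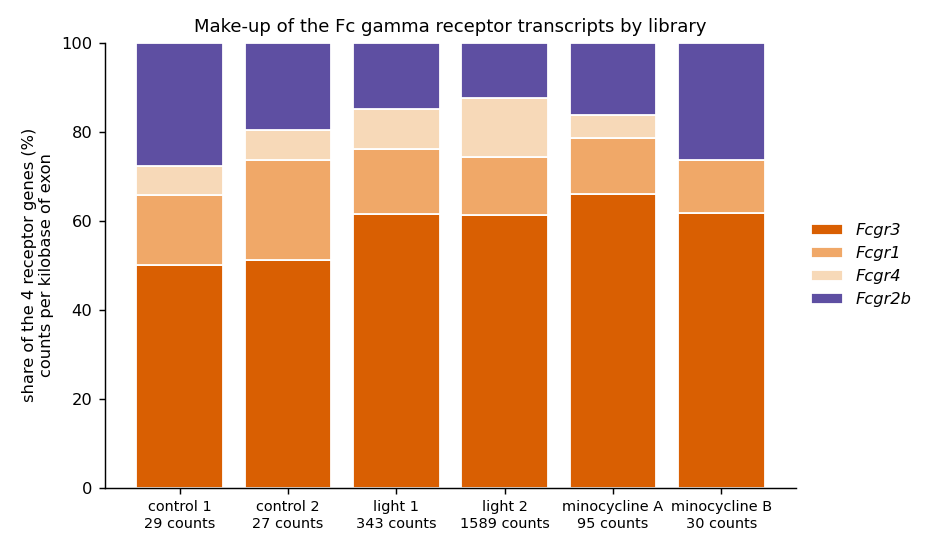
Share of each Fc gamma receptor gene in the counts per kilobase of the 4 receptor genes, in percent, for each library, with the number of raw receptor counts under its name; the inhibitory Fcgr2b is on top. Fcgr2b takes 12.5% to 14.8% in the light-exposed libraries and 19.7% to 27.8% in the control libraries.

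Microglia markers were higher in the light-exposed retinas as well. Their 10 genes summed to 48.9 and 48.8 CPM in control, 224 and 662 CPM in light-exposed and 77.3 and 44.3 CPM in minocycline libraries. After light 6 of the 10 rose and 0 fell, with a median log2 fold change of 2.91. Cx3cr1, the fractalkine receptor, rose by 3.82 ± 0.60 and P2ry12, a purinergic receptor of resting microglia, by 1.73 ± 0.38 (SE, adjusted p = 0.0282 and 0.0227). Siglech was at 1.20 ± 0.108 and 1.47 ± 0.341 CPM (SD, n = 2) in control and light-exposed retinas and did not pass.

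Averaged on the log2 scale, the members lay 2.09 and 1.87 below the microglia markers in control 1 and 2 (values of -2.09 and -1.87), and were at -0.67 and -0.12 in light 1 and 2 and, with minocycline, at -1.75 in library A and -2.10 in library B. The difference in the mean was 1.59 for light against control, -1.53 for minocycline against light and 0.06 for minocycline against control. The exact permutation p values were 0.333, 0.333 and 1.0. Another marker gave other values. Against Tyrobp alone, which encodes the ITAM chain DAP12 of microglia and other myeloid cells, the differences were -0.33, 0.16 and -0.17, computed with a prior count of 2 on members with 1 to 16 counts in the controls. The fitted log2 fold changes of the members and of Tyrobp were closer, with a median of 4.65 against 4.63 after light and of -3.99 against -4.07 with minocycline. Tyrobp itself had 3.54 ± 0.377 CPM in control, 87.3 ± 62.9 after light and 5.11 ± 2.13 with minocycline (SD, n = 2).

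Markers of monocytes, neutrophils, natural killer cells and T cells were scarce. Monocyte markers (7 genes) summed to 1.92 and 2.32 CPM in control, 3.86 and 5.08 after light and 2.74 and 6.41 with minocycline. Ccr2, the chemokine receptor of inflammatory monocytes, had 0 counts in both controls, 10 and 12 counts in light 1 and 2, and 1 and 0 with minocycline. Neutrophil markers (8 genes) reached at most 1.42 CPM and natural killer and T cell markers (11 genes) at most 0.818 CPM, both in light-exposed libraries, and Camp, Elane, Ncr1, Prf1 and Cd3e were at 0 counts in all 6 libraries. Of the monocyte list 1 gene could be tested between light-exposed and control retinas and did not pass (0 by DESeq2, 1 at an unadjusted p under 0.05). In the fit of all libraries 2 monocyte genes were tested and 1, Ccr2, rose. Of the other 2 lists none had enough counts for the edgeR test of these groups, and DESeq2 tested 1 neutrophil gene, which did not pass. S100a8, on the neutrophil list, had 1 and 0 counts in control, 7 and 24 after light and 4 and 2 with minocycline. The part of these cell types in the higher levels of the members was not tested.

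Mast cell and basophil markers summed to 10.4 and 10.6 CPM over 8 genes in control, 5.84 and 4.46 after light and 9.92 and 13.3 with minocycline. Nearly all of these counts came from Kit and Hdc, and the other 6 genes had 0 or 1 count in each library. Kit, a growth factor receptor, did not pass (log2 difference -0.58 ± 0.35 (SE), adjusted p = 0.310). Hdc, which makes histamine, fell by 1.45 on the log2 scale after light (adjusted p = 0.0246), and Fcer1a and Ms4a2, the other chains of the high-affinity receptor for immunoglobulin E, were at 0 counts in every library. Markers of B and plasma cells (6 genes) summed to 36.5 to 62.4 CPM, nearly all from the joining chain gene Igj, those of dendritic cells (6 genes) to 2.76 to 4.56 CPM and those of platelets (5 genes) to 3.09 to 5.42 CPM. None of these 3 lists held a gene that passed the test between light-exposed and control retinas (0 by DESeq2, and 1, Igj, at an unadjusted p under 0.05).

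**Figure D4:**
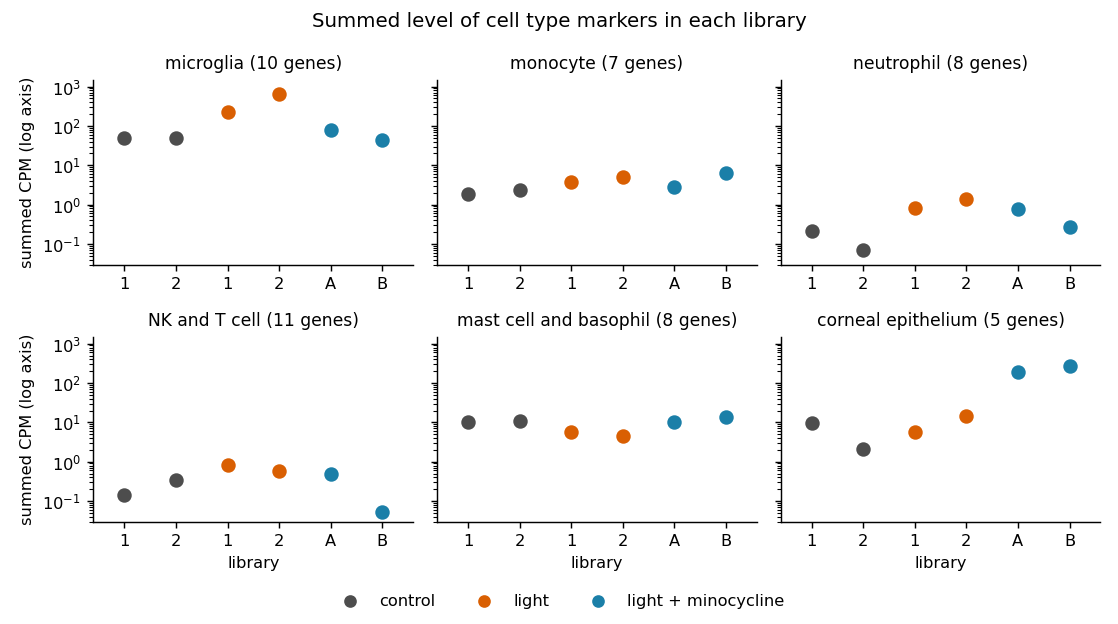
Summed CPM of the marker genes of 6 cell types in each library, on a log axis. Microglia markers reach 224 and 662 CPM in the light-exposed libraries against 48.8 and 48.9 CPM in the control libraries, neutrophil markers and natural killer and T cell markers stay under 1.5 CPM, and corneal markers stand at 188 and 265 CPM in the minocycline libraries.

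The corneal markers are given beside the minocycline results, as they differed with that group. Dsp, which encodes desmoplakin, rose by 4.78 ± 0.47 (SE, adjusted p = 0.0444) against light and by 3.73 ± 0.35 (adjusted p = 0.0356) against control, the 1 corneal gene of 4 tested that passed in each. DESeq2 called 4 corneal genes higher against light and 3 against control, and the fit of all libraries 3 and 0. Krt12, a keratin of the corneal epithelium, was at 4.29 CPM after light and 103 CPM with minocycline (adjusted p = 0.0691). Of the 7 photoreceptor and Müller cell markers 1, Nrl, fell after light (log2 fold change -0.96 ± 0.24 (SE), adjusted p = 0.0296). The part of corneal RNA, or of the lower photoreceptor RNA, in the values of the members was not tested.

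The other genes of the pathway were read in lists by role, and a gene is counted as risen or fallen with an adjusted p under 0.05. Among 12 other genes for antibody receptors, 5 had enough counts for a test and 3 rose after light. Trim21, an intracellular antibody receptor, rose by 1.5 ± 0.33 (SE, adjusted p = 0.0218) and Fcgrt, the neonatal receptor that recycles immunoglobulin G, by 1.56 ± 0.38 (adjusted p = 0.0273). The third was Fcrls, a microglial Fc receptor-like gene that is also among the microglia markers, with 3 counts in each control library and 29 and 103 in light 1 and 2 (adjusted p = 0.0132). Fcamr and Pigr did not pass, at log2 differences of -0.24 ± 0.29 and -0.57 ± 0.57 (SE, adjusted p = 0.631 and 0.543). The median of the list was 1.5, well under that of the members. Of 12 symbols for immunoglobulin chains, the joining chain and pentraxins, listed as ligands, 4 were matched in the table, namely Igj, Crp, Apcs and Ptx3. No symbol of an immunoglobulin heavy or light chain was matched, so RNA of immunoglobulin G was not measured. Igj (40.1 ± 7.41 CPM after light, 55.3 ± 8.99 in control) and Ptx3 (0.654 ± 0.0157 and 0.389 ± 0.0526 CPM, SD, n = 2) were tested without passing (0 by DESeq2, 1 at an unadjusted p under 0.05). Of the adaptor chains other than Fcer1g, 1 of 7 could be tested, Tyrobp, at a log2 difference of 4.63 ± 0.83 (SE, adjusted p = 0.0756, called by DESeq2).

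Upstream of Syk, 4 of 10 tested Src family kinases and regulators rose and 0 fell, with a median log2 fold change of 0.78 (2 were called by DESeq2 and 2 in the fit of all libraries). Ptprc, the phosphatase CD45 of blood-derived cells and microglia, rose by 3.93 ± 0.66 and Src by 0.62 ± 0.17 (SE, adjusted p = 0.0200 and 0.0424, Src not called by DESeq2 at 0.0513). Lyn, a kinase known to phosphorylate the Fcer1g motif in myeloid cells, rose by 3.71 ± 0.63 (SE, adjusted p = 0.0185) and was named after its values were seen. The broadly expressed Yes1 and Csk had 47.3 and 40.2 CPM after light against 54.1 and 50 CPM in control and did not pass.

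Of 24 tested genes acting with or after Syk, 12 rose and 0 fell, with a median of 1.53. The 6 most abundant included 1 that rose, the kinase gene Prkcd, which lay at the threshold (1.67 ± 0.42 (SE), adjusted p = 0.05). Malt1, Plcg1, Grb2, Bcl10 and Vav3 did not pass, with log2 differences of -0.15, 0.22, 0.37, 0.14 and 0.54. The other 11 had mean levels of 0.142 to 3.14 CPM in control retinas, among them Vav1, an exchange factor (4.33 ± 0.80), Plcg2, a phospholipase (3.25 ± 0.54), and Pik3cg, a lipid kinase (3.28 ± 0.57), named after their values were seen (SE, adjusted p = 0.0247, 0.0126 and 0.0132). The adaptor gene Blnk and the kinase gene Btk, named in the same way, were at 0.318 and 0.176 CPM in control, 3.91 and 2.10 CPM in light 1, and 10.8 and 6.65 CPM in light 2.

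Of 15 tested genes of the inhibitory arm 7 rose, 0 fell and 8 did not pass, with a median of 1.10 (6 were called by DESeq2 and 6 in the fit of all libraries). Inpp5d, encoding SHIP1, the phosphatase that acts after Fcgr2b, had 10.6 ± 1.83 CPM in control and 27.4 ± 16.3 CPM after light (SD, n = 2) and did not pass (adjusted p = 0.116, called by DESeq2 at 0.00283). Ptpn11, Sirpa, Inppl1, Cbl and Cblb, the other most abundant genes of the list, had log2 differences between -0.39 and 0.32. Ptpn6, encoding the phosphatase SHP-1, rose by 2.09 ± 0.49 and Cd300a, an inhibitory surface receptor, by 4.26 ± 0.79 (SE, adjusted p = 0.0280 and 0.0236), named after their values were seen. Pirb, an inhibitory receptor listed under the older symbol Lilrb3 and matched after the counting, had 1 and 2 counts in control, 11 and 32 after light and 3 and 4 with minocycline (adjusted p = 0.0245 for light against control).

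Of 15 other receptors that signal through Fcer1g, Tyrobp or Syk, 6 had enough counts for a test and 2 of these rose. DESeq2 called 6 of the 8 it tested, and the fit of all libraries called 5. The median over the 6 tested genes was 4.61, beside 4.65 for the members. It covers only genes that passed the count filter, some of them, such as Clec5a with 2 counts in each control library, only through the light-exposed libraries. Itgb2, the common chain of leukocyte integrins, rose by 4.86 ± 0.92 (SE, adjusted p = 0.0469), and Clec5a had 0.142 CPM in control and 3.03 ± 1.97 CPM after light (SD, n = 2, adjusted p = 0.0108). Clec7a, encoding the fungal glucan receptor Dectin-1, was at 0.991 CPM in control and at 21.7 and 90 CPM in light 1 and 2, and Trem2, the lipid-sensing receptor of microglia, at 1.31, 18.2 and 76.6 CPM, without passing (adjusted p = 0.0918 and 0.105, both called by DESeq2).

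Of the 16 genes of the phagocytic cup and the phagosomal oxidase, 10 rose and 0 fell, with a median of 3.36. Of the most abundant, Rac1 rose by 0.59 ± 0.17 (SE, adjusted p = 0.0453) and Cdc42 had 203 ± 25.3 CPM against 155 ± 39.8 CPM in control (SD, n = 2) without passing. Nckap1l, of the actin-nucleating WAVE complex in blood cells, and Cyba, an oxidase subunit, had log2 differences of 3.52 ± 0.76 and 3.22 ± 0.75 (SE, adjusted p = 0.0769 for both). Cybb, the catalytic subunit of the oxidase, went from 0.212 CPM to 6.02 and 22.1 CPM, and Rac2 rose by 4.77 ± 0.70 (SE, adjusted p = 0.0303 and 0.0124), named after their values were seen.

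Of 7 tested transcription factors known to act at the receptor genes, 5 rose and 0 fell, with a median of 2.78. Cebpa rose by 4.28 ± 0.56, Irf8 by 3.39 ± 0.59, Ikzf1 by 2.81 ± 0.64 and Irf1 by 1.80 ± 0.33 (SE, adjusted p = 0.00962, 0.0197, 0.0280 and 0.0132). Runx1, named after its values were seen, was the fifth, at 2.78 ± 0.59 (SE, adjusted p = 0.0212). Spi1, the gene of PU.1, stands in the table under its older symbol Sfpi1 and was matched and named after the list had been counted. It had 0.427 and 0.423 CPM in control, 2.57 and 8.78 CPM in light-exposed and 0.609 and 0.583 CPM in minocycline libraries, and rose by 3.73 ± 0.68 (SE, adjusted p = 0.0173).

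Without control 1 or without control 2, when few genes of any kind were called, 0 genes of each list passed. Leaving out light 1 or light 2 gave 16 and 8 genes in place of 12 among those acting with or after Syk, 8 and 3 in place of 7 in the inhibitory arm, 6 and 3 in place of 5 transcription factors, and 6 and 2 in place of 4 in the Src family. The other receptors coupled to Syk had more in both fits, with 7 and 5 in place of 2, as had the microglia markers, with 9 and 7 in place of 6. The adaptor chains had 1 and 1 in place of 0, and the other Fc receptors 3 and 2 in place of 3. For the engulfment list these counts were 13 and 9 in place of 10. The fit of all libraries without light 2, added after seeing the data, called fewer: 0 genes acting with or after Syk, 1 of the inhibitory arm, 1 transcription factor, 1 of the Src family, 4 engulfment genes, 3 receptors coupled to Syk, 2 microglia markers and 0 other Fc receptors. With all 6 libraries in one fit the counts were 11 genes acting with or after Syk (13 by DESeq2), 11 engulfment genes (12), 5 transcription factors (5), 7 microglia markers (9) and 3 other Fc receptors (3).

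With minocycline against light alone, 0 genes passed the edgeR test of these groups in the lists of this pathway and among the microglia markers, and the medians were negative in all but the ligands. The median log2 difference was -3.77 for the other receptors coupled to Syk, -2.90 for the engulfment genes, -2.84 for the microglia markers and -2.27 for the transcription factors. It was -1.30 for the genes acting with or after Syk, -0.64 for the Src family kinases, -0.62 for the inhibitory arm and -0.39 for the other Fc receptors. At an unadjusted p under 0.05, 17 of 24 genes acting with or after Syk, 12 of 16 engulfment genes and 5 of 6 receptors coupled to Syk were lower. DESeq2 called 12, 12 and, of 8 receptors it tested, 6 lower. For the inhibitory arm the counts at an unadjusted p and by DESeq2 were 7 and 5, for the transcription factors 6 and 5, for the microglia markers 8 and 7, for the Src family 3 and 2, and for the other Fc receptors 2 and 2. In the edgeR fit of all 6 libraries 8 genes acting with or after Syk, 7 engulfment genes and 4 receptors coupled to Syk fell. So did 4 of the inhibitory arm, 3 transcription factors and 5 microglia markers. The medians depended on the light-exposed library left out. For the engulfment genes they were -3.58 without light 1 and -1.86 without light 2, and for the genes acting with or after Syk -1.70 and -0.66. Fcgrt had a smaller difference than the members, at 5.74 ± 1.4 CPM with minocycline against 7.61 ± 3.07 after light and 2.58 ± 0.567 in control (SD, n = 2). Against control, 0 genes of these lists passed with minocycline, 0 were called by DESeq2, and at most 3 in any list had an unadjusted p under 0.05, as did 7.01% of all genes tested.

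**Figure D5:**
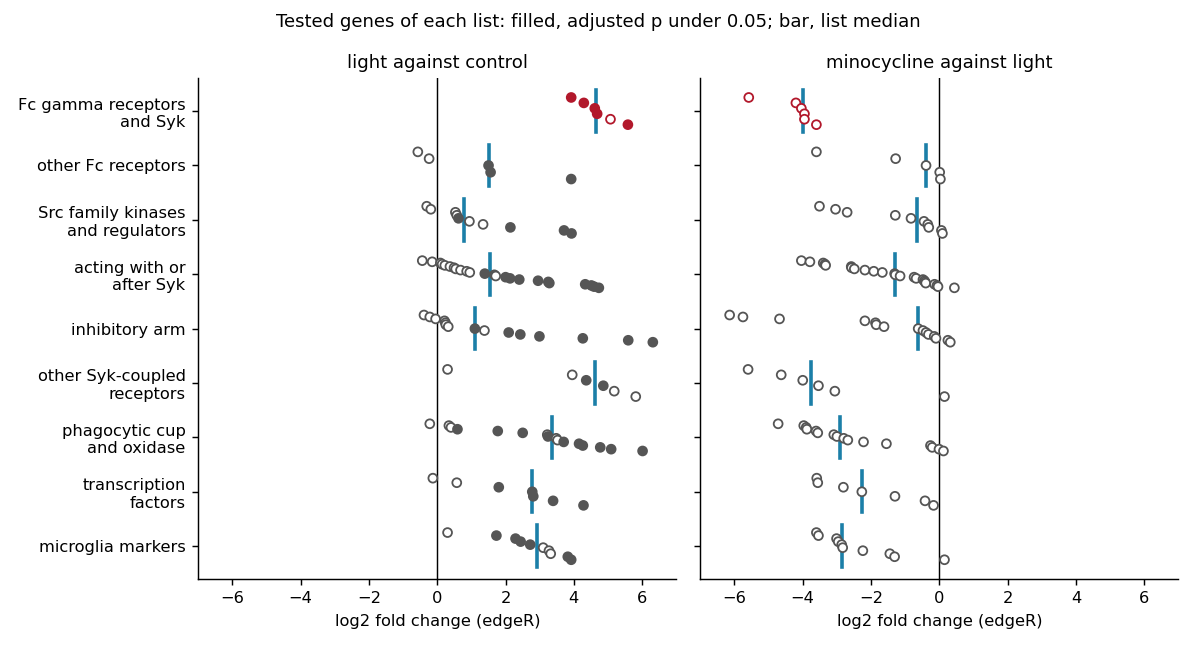
Log2 fold change from edgeR of each tested gene, in rows by role, for light against control and minocycline against light, filled where the adjusted p was under 0.05, with a bar at the median of the row. The members have medians of 4.65 and -3.99, the other receptors coupled to Syk 4.61 and -3.77, and the Src family 0.78 and -0.64.

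The genes whose log2 CPM followed each member most closely over the 6 libraries, of 14712 compared, all had a Pearson r of at least 0.997. With 2 high libraries and 4 low ones, any gene that was high after light, and more so in light 2, has a high r, so these values describe the shared pattern only. They were Hmha1, Tnfaip8l2 and Myo6 for Fcgr1, Arhgap30, Mir3112 and Tlr3 for Fcgr2b, Tlr7, Amz1 and Aldh1l1 for Fcgr3, and Gcnt1, Nckap1l and Cbfb for Fcgr4. For Fcer1g they were Unc93b1 (r = 0.9995), Tyrobp and P2ry6, and for Syk P2rx7 (r = 0.9992), Laptm5 and Rac2. Among the members the lowest r was 0.9737, between Fcgr2b and Syk. The list mixes genes of myeloid cells with broadly expressed ones such as Myo6, which had 124 CPM in control and 162 ± 14.0 CPM after light (SD, n = 2).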

How the data were processed

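Sequencing libraries were made by the authors with a stranded mRNA kit and read over 50 cycles from one end. The authors aligned the reads to mm10 with STAR and compared groups with DESeq2. The authors describe the deposited counts per gene as normalized. The values are whole numbers, and their median ratio to the mean library ranged from 0.8 to 1.29 over 15574 genes, where scaled values would lie near 1 in each library, so they were used as raw counts. All value columns were used (0 left out). Libraries were grouped by the labels. The members and all gene lists were chosen with earlier results of these data known.

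Each pair of groups was fitted in R 4.3.3 with the robust quasi-likelihood test of edgeR 4.0.16, after filterByExpr and TMM scaling, with Benjamini-Hochberg adjustment over all genes tested. A member was called at a log2 fold change of 2 or more with an adjusted p below 0.05, and list genes at the adjusted p alone. CPM used TMM factors over 6 libraries. The p-values rest on the spread between the 2 libraries of a group, pooled over the groups and moderated over all tested genes. Ratios of member levels used a prior count of 2 and an exact permutation test in scipy 1.17.1. Ratios of summed counts were scaled by effective library size, and intervals of counts were exact binomial or Wilson intervals at 95% and cover counting error only. Exon lengths came from GENCODE M21, and start sites and promoter sequences from RefSeq. Of each list the 6 tested genes with the highest mean CPM were named, and for each member the 3 genes most like it, and others are said to be named after their values were seen. The alternatives were DESeq2 1.42.0, other scaling, filters and fits, a replicate block and leaving out each library. The fits were tested on simulated data, with the same dispersion for every gene and 200 well-counted genes changed by a log2 fold of 3. That setting does not cover genes with few control counts or the gap between light 1 and light 2. Values of some list genes are not reported here.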

Additional observations from a re-analysis of the deposited data

How the results depend on the processing

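For light against control, 4 to 6 of the 6 members were called with other scaling, DESeq2, all 6 libraries in one fit, no filter or no robust estimation, against 5 as reported. With at least 10 counts required in every library 2 members were tested and 1, Fcer1g, was called. Leaving out 1 library gave between 0 and 6 members (0 without either control, 6 without either light-exposed library), and the fit of all libraries without light 2, chosen after seeing the data, gave 2. With a replicate block 6 were called, but the numbers did not pair the libraries (correlation of the deviations -0.011 over 2 pairs). No paired analysis was possible with the minocycline libraries, because their columns carry no number. For minocycline against light, DESeq2 called 6 members, no filter 1 (Syk), all 6 libraries in one fit 5, the same fit without light 2 called 1 (Fcer1g), and leaving out 1 library gave between 0 and 6. For minocycline against control every setting and left-out library gave 0 (range 0 to 0), and without minocycline A the log2 differences of Fcgr2b and Fcgr3 turned to -0.14 and -0.0, against 0.65 and 1.59 without minocycline B. The cause of these changes was not tested. Fits with 1 library in a group assume that it varies like the other group.

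The activating to inhibitory ratio differed between light and control by 1.51 with Fcgr4 over Fcgr2b alone, and left-out libraries gave 0.64 to 1.29, against minocycline -1.18 to -0.28, and for minocycline against control -0.22 to 0.68. Relative to microglia markers the corresponding ranges were 1.31 to 1.86, -1.81 to -1.25 and -0.12 to 0.23, and with Tyrobp alone the differences were -0.33, 0.16 and -0.17. The log2 fold changes of the members stayed between 2.81 and 6.33 for light against control and between -9.14 and -2.5 for minocycline against light over all settings. Depth limits the control and minocycline levels most, where members had 0 to 50 counts in a library.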
